A study of Bos taurus with 6 samples.

Results

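CD55, F11R and FZD1 encode proteins of the cell surface, and their transcripts were followed here in cortical pieces of fetal bovine ovaries. The study compared pieces kept for 2 days in control medium, TS+, which held transferrin, selenous acid, albumin (BSA) and linoleic acid, with pieces kept for 2 days with insulin, ITS+. Each group had 3 Affymetrix bovine arrays, numbered 1 to 3, and the labels give neither breed nor fetal age. The series description states that control pieces were richer in resting, primordial follicles and insulin pieces in primary follicles, which have begun to grow. A whole piece holds several cell types, so a lower signal from fewer cells of a type and one from less RNA per cell cannot be told apart.

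CD55, or decay-accelerating factor, is a lipid-anchored protein that speeds the breakdown of the complement convertases and so shields a cell from its host's complement. F11R, also called JAM1 or junctional adhesion molecule A, is an immunoglobulin-type protein of tight junctions that binds its like on neighbouring cells and docks scaffold proteins inside the cell. FZD1 is a frizzled receptor, whose cysteine-rich outer domain binds Wnt ligands together with the co-receptors LRP5 and LRP6. Wnt signalling takes part in the development of the mammalian ovary.

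The members were all rows of the authors' deposited table of 158 probe sets whose symbol or title names one of these 3 genes. There were 4 such rows, 2 for CD55 and 1 each for F11R and FZD1. A probe set is a group of short array probes read as 1 signal. One of the CD55 rows, Bt.24417.2.S1_at, carries no symbol and is titled as weakly similar to the mouse protein, so its assignment rests on that title. The value table of 24128 probe sets held 3 more with the same cluster numbers, 1 for each gene, and these were described too, although no source used here names them. All 7 probe sets lay above the filter on dim signals, which was set on the mean over all arrays. Bt.24417.2.S1_at passed it only through its control signals, as its insulin signals lay below the lowest mean signal tested. The authors' table lists probe sets by the authors' p-value for insulin against control, all under 0.001, so the differences of the 4 rows served to choose them and are given as a description. Just inside that limit was the CD55 probe set Bt.28393.1.S1_at, with a p of 0.000979 in the authors' deposited table. The other probe set of CD55 cluster Bt.24417 was not among the authors' rows. Its ordinary t statistic p on the log2 signals was 0.00272, which comes from the fit made here and not from the authors' test.

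For all 7 probe sets the mean signal was lower with insulin than in control medium, and for 6 of them no insulin array reached the lowest control array. The mean control signal was 1.90 to 2.52 times the insulin mean for CD55, 1.89 to 2.14 times for F11R and 1.60 to 1.68 times for FZD1. The 2.52 is that of Bt.24417.2.S1_at, assigned by its title. The CD55 row chosen by symbol, Bt.28393.1.S1_at, gave 1.90, beside 1.89 for the F11R row. The complete separation of the arrays was met by 11.9% of all 14410 probe sets tested. The median log2 difference of the 7 was -0.91, beside a median of 0.00 over all tested.

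**Figure D1:**
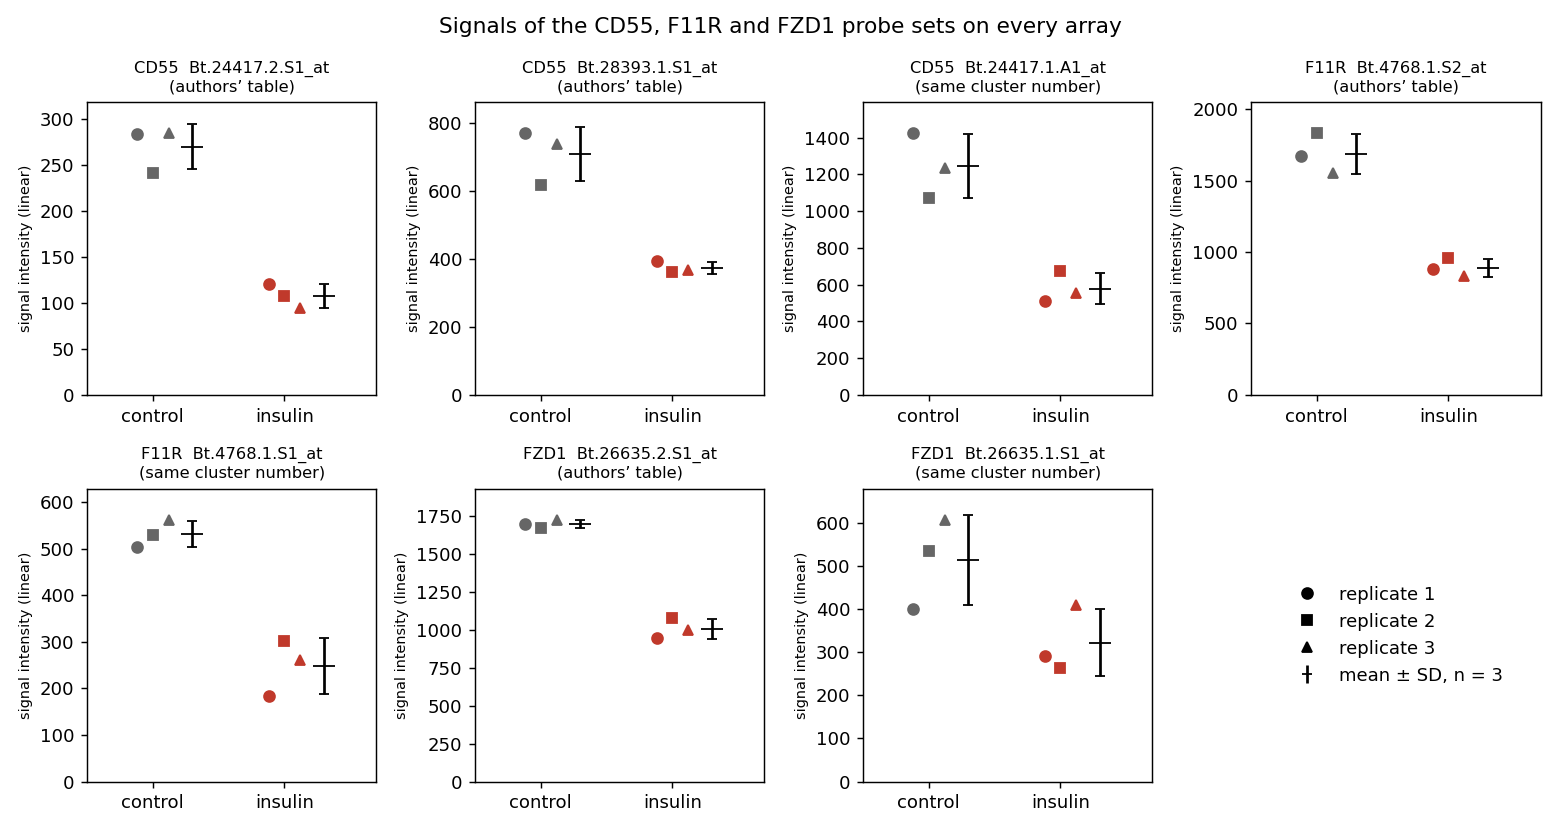
Linear signal intensity of each probe set on the 3 control and 3 insulin arrays, 1 panel per probe set, with the mean ± SD of each group. Control points lie above insulin points in every panel except that of FZD1 probe set Bt.26635.1.S1_at, where insulin replicate 3 (410) exceeds control replicate 1 (400).

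CD55, the complement regulator, held the probe set with the lowest log2 difference of the 7. The signals of Bt.24417.2.S1_at were 284, 242 and 285 in control replicates 1, 2 and 3 and 120, 107 and 94.1 in insulin replicates 1, 2 and 3. The groups did not overlap, and the lowest control array was 2.01 times the highest insulin array. The means were 270 ± 24.3 in control and 107 ± 13.1 with insulin (SD, n = 3 each), and insulin minus control was -1.22 on the log2(signal + 16) scale, with a limma SE of 0.13. Its insulin signals lay below the lowest mean signal of any probe set tested, 123, so its log2 difference depended on the added 16. It was -1.33 with 1 added and -0.97 with 64 added, and the authors' deposited log2 ratio was -1.12.

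The CD55 probe set that carries the older symbol DAF, Bt.28393.1.S1_at, gave 770, 617 and 739 in the control replicates and 393, 361 and 367 in the insulin replicates. Its insulin arrays lay close together, with a coefficient of variation of 4.48%, against 11.4% among its control arrays. The means were 708 ± 80.8 and 374 ± 16.7 (SD, n = 3 each), which put insulin minus control at -0.89 in log2 units (SE 0.13.) The further probe set of cluster Bt.24417, Bt.24417.1.A1_at, gave 1424, 1073 and 1237 in control and 509, 672 and 552 with insulin. Here too the groups were apart, at 1245 ± 176 against 578 ± 84.8 (SD, n = 3 each), and insulin minus control came to -1.09 in log2 units (SE 0.16).

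The 3 CD55 probe sets thus shared a direction and differed somewhat in size. The log2 difference of Bt.24417.2.S1_at was lower than that of Bt.28393.1.S1_at by 0.33, with an SE of 0.07 over arrays. That gap depended on the pseudocount: it was 0.41 with 1 added to the signal and 0.15 with 64 added, where Bt.24417.1.A1_at, at -1.03, became the lowest of the 7. Within cluster Bt.24417 the 2 probe sets were 0.13 apart with an SE of 0.18, less than the spread between arrays. Whether the cluster titled as weakly similar and the cluster named DAF measure the same transcripts was not tested. In the RefSeq gene order of assembly ARS-UCD2.0, CD55 sits beside CR2 and CR1L, other genes of complement receptors and regulators, for which no probe set is named here.

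F11R, the junctional adhesion molecule, was lower with insulin in both of its probe sets. Bt.4768.1.S2_at, the row of the authors' table, gave 1675, 1831 and 1551 in the control replicates and 883, 957 and 831 in the insulin replicates. Replicate 2 was the highest and replicate 3 the lowest in both media. The means were 1686 ± 140 and 891 ± 63.4 (SD, n = 3 each), which put insulin minus control at -0.91 in log2 units (SE 0.12.) Taken pair by pair, insulin minus control of one replicate number, the log2 differences were -0.91, -0.92 and -0.89. Their SD of 0.02 was the smallest among the 7 probe sets, where the others ran from 0.11 to 0.40.

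The further F11R probe set, Bt.4768.1.S1_at, gave 505, 529 and 562 in control and 184, 303 and 260 with insulin. These groups did not overlap either, but the insulin arrays scattered more, with a coefficient of variation of 24.2% against 5.38% in control. The means were 532 ± 28.6 and 249 ± 60.3 (SD, n = 3 each), which put insulin minus control at -1.07 in log2 units (SE 0.18.) The F11R probe sets differed from each other by 0.16 with an SE over arrays of 0.21.

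FZD1, the Wnt receptor, had the smallest difference of the 3 genes, though its gap to the CD55 row named DAF was near the SE of that gap. Bt.26635.2.S1_at gave 1695, 1668 and 1724 in the control replicates, the tightest group of all with a coefficient of variation of 1.64%. With insulin it gave 947, 1075 and 1000.1, all below the control arrays. The means were 1696 ± 27.8 and 1007 ± 64.7 (SD, n = 3 each), which put insulin minus control at -0.74 in log2 units (SE 0.11.)

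The further FZD1 probe set, Bt.26635.1.S1_at, was less clear. It gave 400, 534 and 606 in control and 292, 263 and 410 with insulin, so the groups overlapped by a narrow margin. The means were 513 ± 105 and 322 ± 77.6 (SD, n = 3 each), which put insulin minus control at -0.65 in log2 units (SE 0.21.) In both media replicate 3 was the highest, and insulin was lower within each of the 3 pairs, by log2 differences of -0.44, -0.98 and -0.55. It differed from the other FZD1 probe set by 0.09 with an SE of 0.27.

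**Figure D2:**
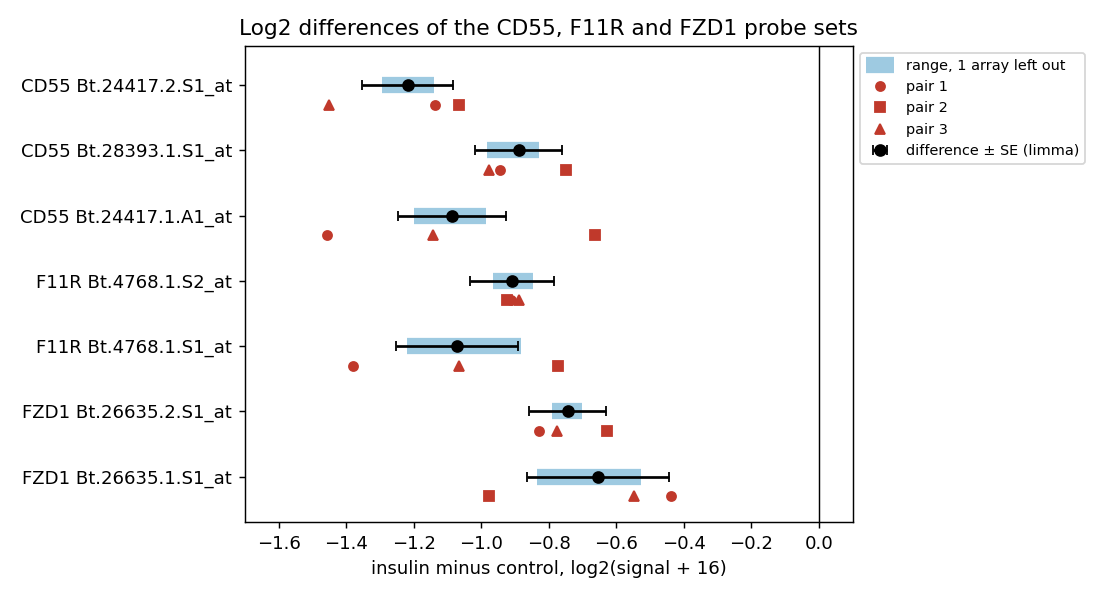
Insulin minus control on the log2(signal + 16) scale for each probe set, as the difference ± limma SE (black), the range when 1 array is left out (blue) and the 3 differences between same-numbered arrays (red). All values lie below 0, from -1.46 to -0.44 for single pairs, and the pairs of F11R probe set Bt.4768.1.S2_at nearly coincide.

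Among the 4 rows of the authors' table, the lowest log2 difference was that of Bt.24417.2.S1_at of CD55, followed by F11R, the DAF row of CD55 and FZD1, though not all neighbours in that order were apart. Bt.24417.2.S1_at of CD55 lay below the FZD1 row by 0.47, with an SE over arrays of 0.13, and by 0.25 with a pseudocount of 64. The F11R row lay below the FZD1 row by 0.16, with an SE of 0.09. It lay below the DAF row of CD55 by 0.02, with an SE of 0.17, so this pair did not differ beyond the spread between arrays. These are differences between members picked on one contrast and were not tested.

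Over the whole array, limma with Benjamini-Hochberg adjustment called 1.08% of the 14410 probe sets lower with insulin, and 6 of the 7 probe sets of these genes were among them. The exception was Bt.26635.1.S1_at of FZD1. With the replicate number as a block the share called lower was 3.25%, and 7 of 7 were called. As 4 of the 7 were chosen on this same contrast and the other 3 come from the same arrays, nothing is read from these counts. Fewer of the 7 were called whenever 1 array was left out. How many depended on the array, and each such fit also has a smaller group. The same held over the whole array, where 156 probe sets were called lower with all 6 arrays. Without control replicate 1, 5 of 7 were called, beside 121 lower over the whole array. Only 1 of 7 was called without insulin replicate 1, control replicate 2 or insulin replicate 3, beside 9, 17 and 29. Without insulin replicate 2 or control replicate 3, 0 of 7 were called, beside 23 and 1. In limma without insulin replicate 2 or without control replicate 3, 6 of 7 had an unadjusted p under 0.05. No share over all probe sets stands beside that count, and nothing is read from it.

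Of all probe sets tested, 0.514% had a log2 difference as low as that of Bt.24417.2.S1_at or lower, and 2.83% one as low as that of Bt.26635.1.S1_at. In the authors' deposited table, which holds 68 lower rows, the members stood at places 7 and 19 for CD55, 14 for F11R and 29 for FZD1 in order of log2 ratio. The log2 ratios in the authors' deposited table were -1.12 and -0.86 for CD55, -0.90 for F11R and -0.73 for FZD1.

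**Figure D3:**
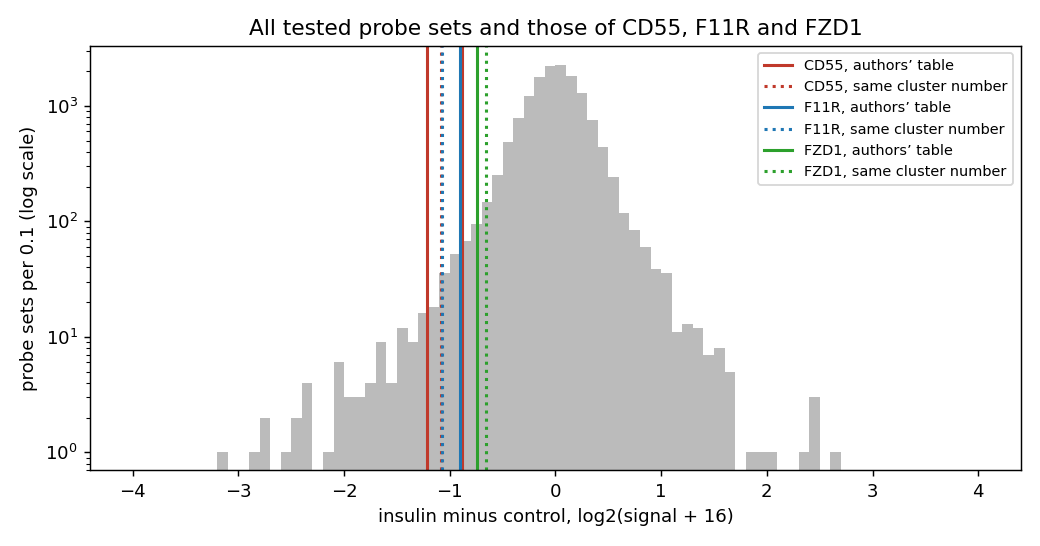
Number of probe sets (log scale) by insulin minus control difference on the log2(signal + 16) scale, in steps of 0.1, for the 14410 tested, with vertical lines at the 7 probe sets of the 3 genes. The lines stand in the lower flank, between -1.22 and -0.65, and probe sets with lower differences lie to their left.

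The arrays on which the members stood high or low within their group were not the same for all. Control replicate 3 lay above its group mean for 6 of the 7 probe sets and insulin replicate 2 for 5 of 7. These arrays also had the highest median signals of their groups, at 212 and 206. No share over all probe sets stands beside these counts, and nothing is read from them. Single probe sets went opposite ways in places. In control replicate 1, Bt.24417.1.A1_at of CD55 stood 0.20 above its group mean on the log2 scale and Bt.26635.1.S1_at of FZD1 stood at -0.33. The FZD1 row of the authors' table, Bt.26635.2.S1_at, stood at -0.0005 there. Probe sets of the same gene also parted: in insulin replicate 2, Bt.26635.2.S1_at stood at 0.09 and Bt.26635.1.S1_at at -0.25.

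Of the other genes of these pathways little could be seen, since only the authors' table pairs probe sets with names. In a list of 26 complement components and regulators, CD55 was the only gene with a named row. F11R was the only one in a list of 28 cell junction genes, and FZD1 the only one in a list of 49 Wnt pathway genes. No gene in the lists of oocyte, granulosa, theca, stroma, surface epithelium, endothelium, smooth muscle, leukocyte or red blood cell markers had a named row, so neither the tissue label nor the mix of cells could be checked, and its part in the differences was not tested.

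The authors' table annotates some rows by cellular component. A tight junction term was given to 2 rows, F11R and Bt.16583.1.S1_at, which bears the symbol MGC126930 and resembles, by its title, a gamma-like subunit of calcium channels. The signals of MGC126930 were 1016, 931 and 845 in control and 356, 416 and 395 with insulin, with no overlap, and insulin minus control was -1.22 in log2 units (SE 0.13). A membrane term was given to 17 rows, F11R and FZD1 among them, of which 6 were lower and 11 higher with insulin, beside 68 lower and 90 higher in the whole table. The 10 of these rows that also bear a mitochondrial, endoplasmic reticulum, Golgi or nuclear term held 2 lower and 8 higher. The other 7, with F11R and FZD1, held 4 lower and 3 higher, and 2 of these higher rows carry the same symbol. Lacking those terms does not place a row at the cell surface. The CD55 rows carry no cellular component term. The table was chosen on the same contrast, so these counts describe it only.

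For each row of the authors' table, the 3 named genes with the most similar array profile were listed by the root mean square distance between log2 signals, each centred on its mean over the 6 arrays. For F11R these were MTURN at a distance of 0.07, KLHL24 at 0.07 and MXI1, an antagonist of MYC, at 0.08. The MTURN probe set had insulin signals of 103 ± 0.0936 (SD, n = 3), below the lowest mean signal tested, so its distance rests partly on dim values. For FZD1 they were GLUL, the glutamine synthetase, at 0.10, MXI1 at 0.10 and KLHL24 at 0.12. The F11R and FZD1 rows were 0.13 apart from each other and shared MXI1 and KLHL24 among their nearest.

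For the DAF row of CD55 the nearest were BCL6, a transcriptional repressor, at 0.09, C21H14orf132 at 0.11 and GLUL at 0.11. For Bt.24417.2.S1_at of CD55 they were RPL5, a ribosomal protein, at 0.10, BCL6 at 0.16 and C21H14orf132 at 0.17. The CD55 rows were 0.18 apart, so each had a named gene nearer to it than the other row of the same gene. Candidates came only from named rows of the authors' table, so each nearest gene is such a row, and all were lower with insulin. A distance over 6 arrays in 2 groups is set largely by that shared difference. Among all probe sets tested, 14 lay closer to the FZD1 row than GLUL did, and 4 closer to the DAF row than BCL6. There was 1 closer to the F11R row than MTURN, and 1 closer to Bt.24417.2.S1_at than RPL5.

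**Figure D4:**
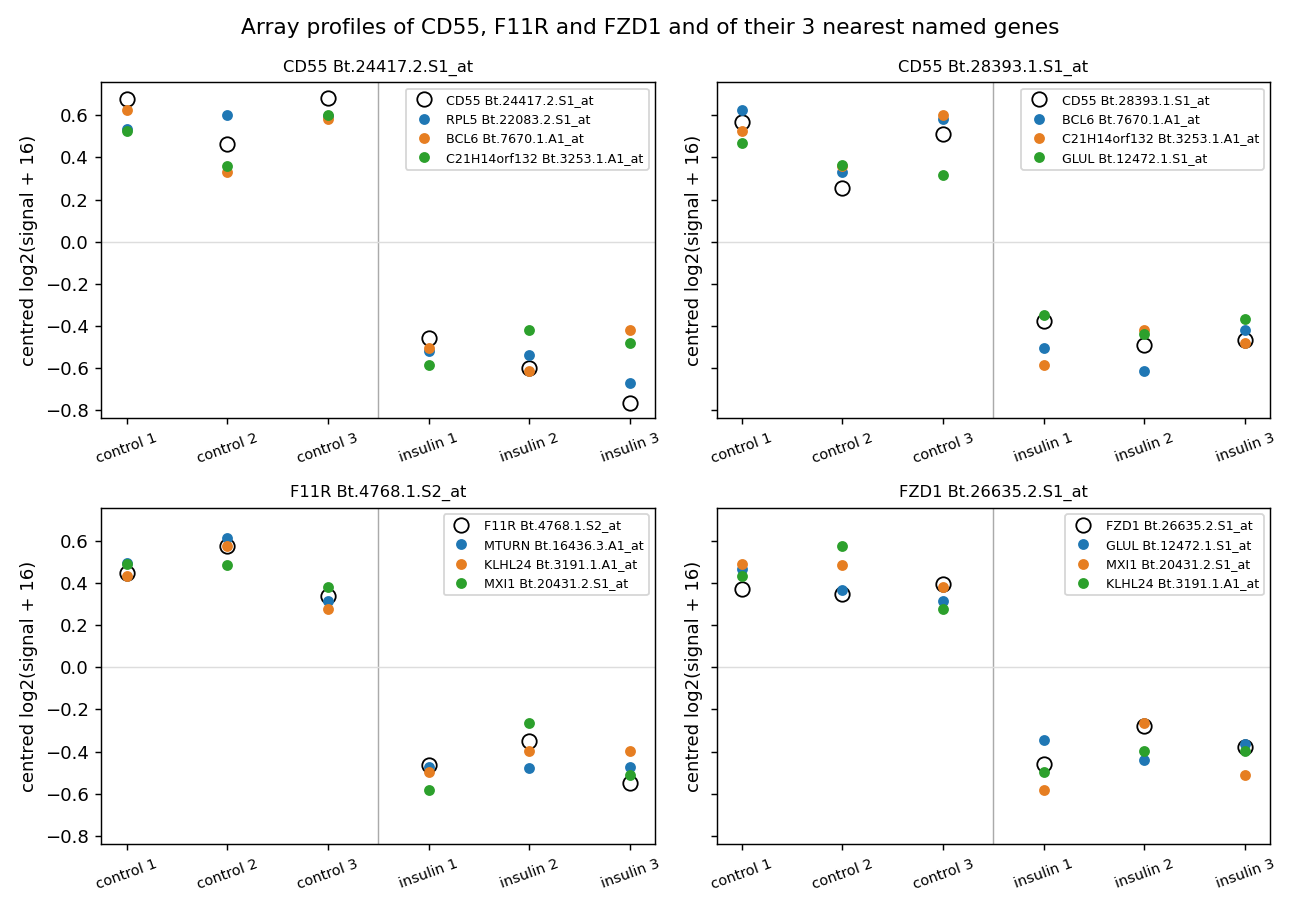
Log2(signal + 16) centred on the mean of the 6 arrays, for each row of the authors' table (open circles) and its 3 nearest named genes (filled points), by array. In each panel all control points lie above 0 and all insulin points below it, and the F11R panel has the closest match, with distances of 0.07 to 0.08.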

How the data were processed

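Signals of 6 Affymetrix arrays, 3 control and 3 insulin, were used, grouped and numbered by sample title. The deposited values are linear signal intensities, 1 for each probe set on each array, which the authors had scaled. The submitters' processing notes name GCOS, the Affymetrix array software, whose version was not given in the sources used here. Medians of the arrays ran from 196 to 212, and having 3 arrays per group limits the precision. In the authors' deposited table, per the file headers, the log2 column is the log2 ratio of insulin over control, the fold column the linear ratio, with a p-value and a t score per probe set; how they were computed was not given in the sources used here. Its 9 per-array columns, 3 with day 0 names, match no single sample here and were not used.

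The 112 control probe sets and the dimmest 40% by mean log2 signal were left out. log2(signal + 16) was compared in limma 3.58.1 (lmFit and eBayes, in R 4.3.3) with no block; p-values were adjusted by Benjamini-Hochberg over all 14410 probe sets tested and held to 0.05; the fit was tested on simulated data. Deviations from group means correlated at 0.56, 0.31 and 0.42 between arrays numbered 1, 2 and 3 in both groups, so the numbers were taken to pair arrays, from the data and not the labels, and the fit with the block is given where it changes a call. Nothing in the labels says that replicates came from separate fetuses or cultures; the spread behind each p-value may thus be technical. Of 105 rows with a symbol in the authors' table, 76 matched RefSeq (ARS-UCD2.0), DAF and JAM1 as synonyms of CD55 and F11R. Named genes were the members, probe sets of the same cluster numbers, the 3 nearest named genes of each row and named rows of fixed lists; MGC126930, CR2 and CR1L were added after the data were seen. Members and lists were chosen with earlier results of these data known. Figures were made with Python 3.11.15 and matplotlib 3.10.9.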

Additional observations from a re-analysis of the deposited data

How the results depend on the processing

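Each log2 difference was recomputed under 17 alternatives, and for the 4 rows of the authors' table also taken from the authors' deposited log2 ratio. Of these 122 values, 41 came from settings that cannot change the difference or that repeat another setting (the filters, the variance models and the block). The other 81 were all negative. Of them, 80 lay within 1 SD of the reported value, the SD being that of the arrays about their group means. Part of this was fixed in advance, as leaving 1 of 3 arrays out cannot move a difference by a full SD of this kind. Nor can it change the sign where the groups do not overlap. The value beyond 1 SD was that of Bt.24417.2.S1_at of CD55, at -0.97 with a pseudocount of 64. That probe set lay below a filter at 60% and has no value there. Of the 7 probe sets, 0 to 5 were called when 1 array was left out, and 0 in limma with no filter or with an ordinary t statistic. There 7 and 6 had an unadjusted p under 0.05, counts with no share over all probe sets beside them and from which nothing is read. The count of 326 probe sets over the whole array was 2 when nothing was filtered, 12 by an ordinary t statistic, 542 with a trended robust variance, 605 with array weights, 916 with the replicate block, 945 with block and quantile normalization, and 3 to 244 with 1 array left out. The block changed the call of Bt.26635.1.S1_at of FZD1 and of no other probe set of these genes.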
